A study of Mus musculus with 12 samples.

Results

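The 10 genes described here belong to the NRF2 antioxidant response of the liver. They were chosen by name, with earlier results of these data known. They are the regulators Nfe2l2 and Keap1, the quinone reductase Nqo1, the glutathione synthesis genes Gclc and Gclm, and the thiol reductases Txnrd1 and Srxn1. The others are the haem-degrading enzyme Hmox1, the NADPH-supplying enzyme G6pdx and catalase, Cat. Together they are 10 of the 22322 gene symbols in the deposited tables, and each is represented by the transcript row with the highest mean level. All 10 passed the filter on low levels, as did 10799 symbols in all. RNA sequencing was made on whole liver of C57BL/6 mice aged 8 weeks that were kept in constant darkness for the last days. The 4 groups were wild-type (WT) mice and mice without Bmal1 in the liver (KO), each taken at circadian time 0 h (CT0, when the lights would have come on) and at 12 h (CT12), with 3 libraries per group. Both genotypes descend from a line with loxP sites around an exon of Bmal1, and KO mice in addition carried CRE recombinase active in liver only. The sources mention CRE for KO alone, and an effect of CRE and one of the deletion cannot be told apart. A whole-liver library also cannot tell fewer cells of a type from less RNA per cell. The titles number 3 libraries per group and the published methods speak of 3 mice of each genotype, while the protocol in the labels speaks of 2 mice per genotype and time. The p-values measure the spread between libraries, part of which may be technical.

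NRF2, the protein of Nfe2l2, is a transcription factor that the adaptor protein KEAP1 holds for degradation while the cell is not under stress. Oxidants and electrophiles modify KEAP1, NRF2 then accumulates, pairs with a small MAF protein in the nucleus and binds antioxidant response elements (AREs) near genes for glutathione synthesis, thiol reduction, NADPH supply, conjugation and haem breakdown. BACH1 is a repressor that competes for such elements, above all at Hmox1. BMAL1, the protein of the gene listed as Arntl, pairs with CLOCK and drives the circadian clock from E-boxes. The question put to these data was whether the RNA of this response differed between WT and KO liver and between the 2 times.

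Levels are given as RPKM (reads scaled to the kilobases of the transcript and to the depth of the library) and differences as differences in log2(RPKM + 1), a scale that understates the change of genes with low levels. All adjusted p-values come from limma, fitted to all 12 libraries and adjusted over all 10799 genes, and a gene is said to have risen or fallen only where the adjusted p was under 0.05. The depth recovered from the values was 16898174 to 19019160 reads in WT at CT0, 13411922 to 16130266 in WT at CT12, 11463314 to 14904564 in KO at CT0 and 13241138 to 14420049 in KO at CT12. Arntl, the targeted gene, was at 15.9 ± 0.370 RPKM in WT at CT0 and 1.05 ± 0.320 RPKM in WT at CT12 (SD, n = 3). In the libraries labelled KO it was at 6.37 ± 0.944 RPKM at CT0 and 3.99 ± 0.391 RPKM at CT12 (SD, n = 3). KO was thus lower than WT at CT0 (log2 difference -1.21, adjusted p = 0.000582) and higher than WT at CT12 (log2 difference 1.29, adjusted p = 6.26e-05). The row spans all 20 exons of the transcript, of which the deletion removes only a part, so its level at CT12 does not check the label, and KO below means the libraries labelled KO. Replicate 1 of KO at CT0 was the highest of its own group for 7 of the 10 genes. Over all tested genes this share was 44.7%, the largest of the 12 libraries, so its high values were not limited to these genes. Beside the values that rest on that library most, those without it are given.

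Sequences around the transcription start were available for 8 of the 10 genes, as 10 windows of 300 bases (250 before to 50 after the start, RefSeq, GRCm38.p6). They were searched for the core letters of the ARE, TGACNNNGC, on both strands, since these are the letters that NRF2 with a small MAF reads. The core was found in a window of 5 genes. These 5 stretches are printed because they hold the core letters of the element the pathway is named for. Each match is in capitals between its neighbours, 5′ to 3′ along the strand of the gene.

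Nfe2l2: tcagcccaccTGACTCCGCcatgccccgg
Gclm: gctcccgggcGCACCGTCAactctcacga
Txnrd1: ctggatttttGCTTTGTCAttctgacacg
Srxn1: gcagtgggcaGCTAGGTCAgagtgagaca
G6pdx: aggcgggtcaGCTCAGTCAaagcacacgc

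The match of Nfe2l2 lay on the gene's own strand at bases -240 to -232 from the start (chr2:75704895-75704903). The other 4 lay on the opposite strand, at bases -134 to -126 in Gclm (chr3:122245423-122245431), -92 to -84 in 1 of the 3 windows of Txnrd1 (chr10:82859114-82859122), 28 to 36 in Srxn1 (chr2:152105552-152105560) and -57 to -49 in G6pdx (chrX:74428929-74428937). The windows of Keap1, Nqo1 and Cat held no match, and Gclc and Hmox1 were without a window. Of all windows of this kind, 12.4% held the core, and of the windows of tested genes 14.4% did. The E-box CACGTG, the letters read by BMAL1 with CLOCK, was in none of the 10 windows, against 7.15% of all windows and 9.97% of those of tested genes. These matches describe letters in a short window and do not show binding.

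The levels of the 10 genes spanned a wide range in the liver. Catalase, which breaks down hydrogen peroxide, had by far the highest level, 1261 RPKM as the mean of the 12 libraries. The glutathione synthesis genes followed at 91.4 RPKM for Gclc and 81.9 RPKM for Gclm, and their ranges over the libraries overlapped. Txnrd1 came next at 33.2 RPKM, with every library between 29.2 and 42.5 RPKM, apart from its neighbours in the order on both sides. The place of Gclm depends on the row, since its lowest row, at a mean of 27.4 RPKM (24.0 to 32.7 RPKM), overlapped Txnrd1. Nfe2l2 (17.6 RPKM), Hmox1 (10.5 RPKM), Srxn1 (9.86 RPKM) and Keap1 (8.15 RPKM) formed a middle set in which each range overlapped that of the next. Nqo1 (3.83 RPKM) and G6pdx (3.51 RPKM) were lowest and overlapped each other, and no library of Nqo1 reached the lowest level of Keap1, 6.40 RPKM. G6pdx did so in 1 library, replicate 1 of KO at CT0. Hmox1 and G6pdx varied most among the libraries, with a highest level 3.69 and 4.12 times their lowest, while Gclm varied least, at 1.35 times.

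**Figure D1:**
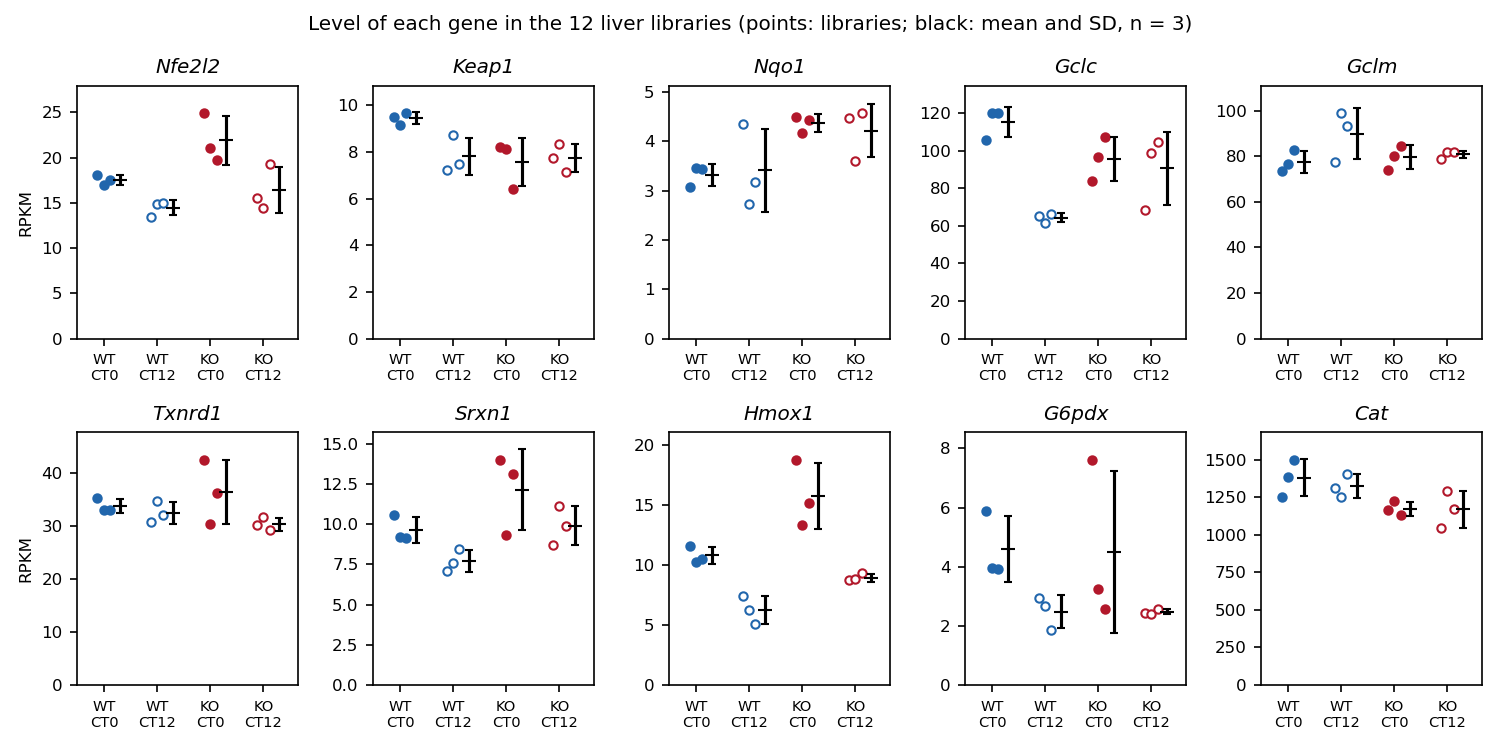
Level (RPKM, linear axes from 0) of the 10 genes in each of the 12 libraries, with filled points for CT0 and open points for CT12, WT in blue and KO in red; black bars are the mean and SD of 3 libraries. Hmox1 was lower at CT12 in both genotypes, and on the kept row its KO libraries lay above its WT libraries at both times. At CT0 that difference between genotypes was not called (adjusted p = 0.0941, limma), and on the coding row the genotypes overlapped there. Gclc was lowest in WT at CT12, at 61.6 to 66.1 RPKM.

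Few of the 10 genes passed the test, and those that did were Hmox1, Gclc, Nfe2l2 and G6pdx. Averaged over both times, Hmox1 alone differed between genotypes, being higher in KO, so that 1 of 10 was called against 11.5% of all tested genes. At CT12 alone Hmox1 was again the 1 gene of 10 that was called (10.5% of all tested genes). At CT0 none was, where 1.86% of all tested genes were called. Averaged over both genotypes, 4 of 10 fell from CT0 to CT12 and none rose, where 16.6% of all tested genes were called and 10.5% fell. Within WT, Gclc and Hmox1 fell (2 of 10, 11.6% of all), and within KO, Hmox1 fell (1 of 10, 2.43% of all). The interaction, which asks whether the genotypes differed in their change with time, called none of the 10 and 1.49% of all tested genes. The contrasts share libraries, so their calls are not independent of each other.

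The same comparisons can be read from the ranges of the 3 libraries per group. At CT0 the KO and WT libraries did not overlap for 5 of 10 genes (20.6% of all tested genes), with Nfe2l2, Nqo1 and Hmox1 higher and Keap1 and Cat lower in KO. At CT12 they did not overlap for 3 of 10 (28.8% of all), and Gclc, Srxn1 and Hmox1 were higher in KO. Between the times the libraries did not overlap for 6 of 10 genes in WT (34.1% of all) and 3 of 10 in KO (23.2% of all), and each of these was lower at CT12. The median log2 difference from CT0 to CT12 was -0.26 for the 10 genes in WT and -0.17 in KO, beside -0.07 and -0.0020 for all tested genes. For KO minus WT the medians were 0.06 at CT0 and 0.09 at CT12, beside 0.01 and 0.08 for all tested genes.

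**Figure D2:**
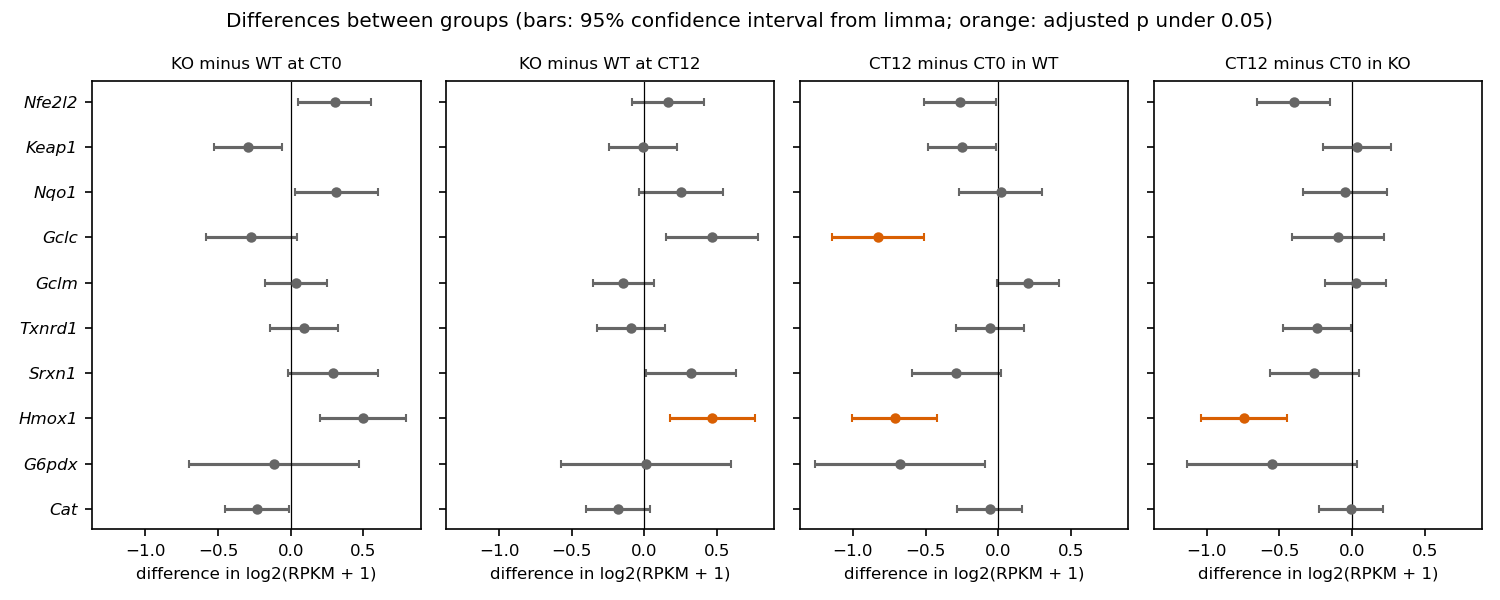
Difference in log2(RPKM + 1) of each gene (points) with its 95% confidence interval from limma (bars) in the 4 comparisons between single groups; orange marks an adjusted p under 0.05. Hmox1 is to the left of 0 in both comparisons of times and to the right of 0 in both of genotypes, and Gclc has the lowest value of the plot, -0.83 in WT.

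Nfe2l2 encodes NRF2 itself (ENSMUSG00000015839, minus strand, chr2:75513570-75542698 on mm9). Its RNA fell from CT0 to CT12 when both genotypes were averaged (log2 difference -0.33 ± 0.08 SE, adjusted p = 0.0166). In WT the libraries held 18.1, 17.0 and 17.5 RPKM at CT0 and 13.5, 14.9 and 15.0 RPKM at CT12. In KO they held 24.9, 21.0 and 19.8 RPKM at CT0 and 15.5, 14.4 and 19.2 RPKM at CT12. The CT12 libraries were below the CT0 libraries without overlap in each genotype, although neither genotype alone passed the test (adjusted p = 0.164 in WT and 0.0881 in KO). Without replicate 3 of KO at CT12 the fall in KO did pass, with a log2 difference of -0.52 (adjusted p = 0.0434). That was the only 1 of 21 alternatives in which it did. Without replicate 1 of KO at CT0 it was -0.31 (adjusted p = 0.201). Between genotypes the value was 0.30 at CT0, where every KO library lay above every WT library, and 0.23 ± 0.08 SE over both times (adjusted p = 0.0890). Leaving out replicate 1 of KO at CT0 gave 0.21 for the genotypes at CT0, 0.19 for the genotypes over both times (adjusted p = 0.167) and -0.29 for the times (adjusted p = 0.0312).

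Keap1 encodes the adaptor that presents NRF2 for degradation (ENSMUSG00000003308, minus strand, chr9:21034174-21043776). It passed the test in no comparison. The WT libraries at CT0 held 9.51, 9.17 and 9.67 RPKM, which were the 3 highest of the 12. Those of WT at CT12 held 7.24, 8.71 and 7.49 RPKM, those of KO at CT0 8.21, 8.14 and 6.40 RPKM and those of KO at CT12 7.75, 8.36 and 7.16 RPKM. The 3 lower groups overlapped one another. The WT libraries at CT0 lay above the other 3 groups without overlap, with log2 differences of -0.29 ± 0.11 SE for KO minus WT at CT0 (adjusted p = 0.228) and -0.25 ± 0.11 SE for CT12 minus CT0 in WT (adjusted p = 0.159).

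Nqo1 encodes the quinone reductase that is the usual readout of NRF2 activity (ENSMUSG00000003849, minus strand, chr8:109912125-109927106). Its level was low in these livers, resting on 62 to 109 reads per library. WT held 3.07, 3.45 and 3.43 RPKM at CT0 and 4.35, 2.72 and 3.17 RPKM at CT12, and KO held 4.49, 4.16 and 4.44 RPKM at CT0 and 4.47, 3.599 and 4.57 RPKM at CT12. All KO libraries at CT0 were above all WT libraries at CT0, while at CT12 the groups overlapped through replicate 1 of WT. The difference over both times was 0.28 ± 0.09 SE and did not pass (adjusted p = 0.0743, 95% interval 0.08 to 0.49). Without that WT library it was 0.36 and passed (adjusted p = 0.0164), the only 1 of 20 alternatives in which it did. Without replicate 1 of KO at CT0 it was 0.27 (adjusted p = 0.123). From CT0 to CT12 Nqo1 differed by -0.02 over both genotypes (95% interval -0.22 to 0.19).

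Gclc encodes the catalytic subunit of glutamate-cysteine ligase, the rate-limiting enzyme of glutathione synthesis (ENSMUSG00000032350, plus strand, chr9:77602342-77642292). In WT its RNA fell from CT0 to CT12, by 0.83 ± 0.14 SE on the log2 scale (adjusted p = 0.00367). WT held 106, 119.9 and 119.9 RPKM at CT0 and 65.1, 61.6 and 66.1 RPKM at CT12, on 3036 to 7804 reads per library over all groups. KO held 83.6, 96.4 and 107 RPKM at CT0 and 68.3, 98.5 and 105 RPKM at CT12, and these 2 groups overlapped. The difference between times in KO was -0.10 ± 0.14 SE (adjusted p = 0.762, 95% interval -0.41 to 0.22). The difference between these 2 changes was itself tested as the interaction, 0.73 ± 0.20 SE (95% interval 0.29 to 1.18), which missed the threshold after adjustment (adjusted p = 0.125, unadjusted p = 0.00381). At CT12 every KO library was above every WT library, by 0.46 ± 0.14 SE (adjusted p = 0.0640), and at CT0 the groups overlapped, with a value of -0.27 ± 0.14 SE (adjusted p = 0.437). Replicate 1 of KO at CT12 was the one KO library near the WT level. Without that library, the interaction was 0.92 (adjusted p = 0.0166) and the difference at CT12 was 0.65 (adjusted p = 0.00476), both past the threshold. The interaction passed in only 1 of 20 alternatives, and the difference at CT12 in 2 of 21. Without replicate 1 of KO at CT0 the interaction was 0.64 (adjusted p = 0.222), the difference between genotypes at CT0 was -0.18 (adjusted p = 0.718) and that between times in KO was -0.19 (adjusted p = 0.561).

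Gclm encodes the modifier subunit of the same enzyme (ENSMUSG00000028124, plus strand, kept transcript at chr3:121958505-121972902). It passed the test in no comparison. WT held 73.4, 76.4 and 82.6 RPKM at CT0 and 77.5, 98.9 and 93.3 RPKM at CT12. KO held 74.0, 80.0 and 84.4 RPKM at CT0 and 78.9, 81.7 and 81.7 RPKM at CT12. The groups overlapped in all 4 comparisons, and the value nearest to the threshold was that of CT12 minus CT0 in WT, 0.21 ± 0.10 SE (adjusted p = 0.198), opposite in sign to that of Gclc. The 4 rows of Gclm had mean levels from 27.4 to 81.9 RPKM, so its level relative to other genes depends on the row.

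At the RNA level the 2 subunits of glutamate-cysteine ligase stood in different proportions in WT at CT0 and at CT12. The 2 KO groups overlapped in this ratio, and protein was not measured. The ratio of the Gclc level to the Gclm level was 1.44, 1.57 and 1.45 in WT at CT0 and 0.841, 0.623 and 0.709 in WT at CT12. In KO it was 1.13, 1.21 and 1.27 at CT0 and 0.866, 1.21 and 1.28 at CT12. Every WT library at CT12 had a lower ratio than every library of the other 3 groups, and every WT library at CT0 a higher one. Against the longest Gclm row, whose level is lower, the group means were 4.32, 2.13, 3.72 and 3.37 in the same order. The ratio was calculated after the levels were seen and was not tested.

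Txnrd1 encodes the cytosolic thioredoxin reductase (ENSMUSG00000020250, plus strand, chr10:82321951-82360469). It did not pass the test in any comparison. WT held 35.3, 33.1 and 33.0 RPKM at CT0 and 30.7, 34.6 and 32.0 RPKM at CT12, and KO held 42.5, 30.4 and 36.2 RPKM at CT0 and 30.1, 31.6 and 29.2 RPKM at CT12. The groups overlapped in all 4 comparisons. The difference between genotypes over both times was -0.0008 (95% interval -0.17 to 0.17). The widest value was that of CT12 minus CT0 in KO, -0.24 ± 0.11 SE (adjusted p = 0.236), and without replicate 1 of KO at CT0, which held the highest level, it was -0.13 (adjusted p = 0.525). Without that library the difference between genotypes was -0.06 (adjusted p = 0.645).

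Srxn1 encodes sulfiredoxin, which reduces overoxidised peroxiredoxins (ENSMUSG00000032802, plus strand, chr2:151931466-151937089). WT held 10.6, 9.20 and 9.16 RPKM at CT0 and 7.08, 7.62 and 8.46 RPKM at CT12. KO held 14.0, 9.33 and 13.1 RPKM at CT0 and 8.70, 11.1 and 9.89 RPKM at CT12. The KO libraries at CT12 lay above the WT libraries at CT12, and the WT libraries at CT12 below those at CT0, without overlap. Over both times KO was at 0.31 ± 0.10 SE relative to WT (adjusted p = 0.0713), and over both genotypes CT12 was at -0.27 ± 0.10 SE relative to CT0 (adjusted p = 0.0819), so neither passed. Both passed in only 1 of 21 alternatives, which left out replicate 2 of KO at CT0, the lowest of its group. There they were 0.39 (adjusted p = 0.0109) and -0.36 (adjusted p = 0.0158). Without replicate 1 of that group they were 0.25 (adjusted p = 0.138) and -0.22 (adjusted p = 0.151).

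Hmox1 encodes haem oxygenase 1, which opens the haem ring to biliverdin, carbon monoxide and iron (ENSMUSG00000005413, plus strand, kept transcript at chr8:77617749-77621103). It was the gene of the 10 with the most calls. Its RNA fell from CT0 to CT12 in both genotypes and was higher in KO than in WT. WT held 11.6, 10.3 and 10.5 RPKM at CT0 and 7.47, 6.25 and 5.10 RPKM at CT12. KO held 18.8, 13.4 and 15.2 RPKM at CT0 and 8.73, 8.83 and 9.35 RPKM at CT12. No 2 of the 4 groups overlapped, and their order was KO at CT0, WT at CT0, KO at CT12 and WT at CT12. The fall with time was 0.71 ± 0.13 SE on the log2 scale in WT (adjusted p = 0.00597) and 0.74 ± 0.13 SE in KO (adjusted p = 0.0198). The interaction between genotype and time was -0.03 ± 0.19 SE (adjusted p = 0.969, 95% interval -0.45 to 0.39). KO minus WT was 0.50 ± 0.13 SE at CT0 (adjusted p = 0.0941), 0.47 ± 0.13 SE at CT12 (adjusted p = 0.0465) and 0.48 ± 0.10 SE over both times (adjusted p = 0.00648).

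The call of Hmox1 over both times was kept without replicate 1 of KO at CT0 (0.42, adjusted p = 0.0111), where the value at CT0 alone was 0.37 (adjusted p = 0.265). Also kept was the fall with time in KO (-0.62, adjusted p = 0.0474). The call at CT12 alone was close to the threshold. It was lost without WT CT0 replicates 1, 2 and 3 (adjusted p = 0.0560, 0.0652 and 0.0635), which only add to the estimate of the spread, without WT CT12 replicates 2 and 3 (0.0983 and 0.172), without KO CT0 replicate 3 (0.0621) and without KO CT12 replicates 1, 2 and 3 (0.0840, 0.101 and 0.125), and the log2 difference ranged from 0.35 to 0.58 over all alternatives run. The fall in KO was lost without KO CT0 replicate 3 (adjusted p = 0.0622) and without KO CT12 replicates 1 and 2 (0.0704 and 0.0605). The kept row of Hmox1 is a transcript of 556 bases and 3 exons annotated as not coding, with 38 to 156 reads per library. The full-length coding row of 1606 bases and 5 exons had 115 to 370 reads per library and showed the same order of groups in its means, but its KO and WT libraries overlapped at CT0. On that row WT held 11.6, 9.95 and 9.65 RPKM at CT0 and 6.18, 5.55 and 5.34 RPKM at CT12, and KO held 15.5, 10.5 and 12.9 RPKM at CT0 and 7.08, 7.62 and 9.39 RPKM at CT12. On it KO minus WT was 0.28 ± 0.14 SE at CT0 (adjusted p = 0.382), 0.43 ± 0.14 SE at CT12 (adjusted p = 0.0703) and 0.35 ± 0.10 SE over both times (adjusted p = 0.0339), and the falls with time were 0.77 ± 0.14 SE in WT (adjusted p = 0.00350) and 0.62 ± 0.14 SE in KO (adjusted p = 0.0358). The 2 rows overlap in the genome and can share reads.

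Hmox1 is also expressed by Kupffer cells, the macrophages of the liver that clear aged red cells, and by other cells of myeloid origin, so marker genes of other cell types are given beside it. The 7 Kupffer cell and macrophage markers summed to 147 to 194 RPKM in WT at CT0, 91.6 to 140 RPKM in WT at CT12, 131 to 198 RPKM in KO at CT0 and 99.1 to 173 RPKM in KO at CT12. None of the 7 differed between genotypes over both times, and 4 of the 7 (Clec4f, Csf1r, Emr1 and Vsig4) fell from CT0 to CT12. The 4 neutrophil markers summed to 27.4 to 98.6 RPKM in WT at CT0 and 5.14 to 7.22 RPKM in WT at CT12, and to 91.1 to 190 RPKM and 16.4 to 38.3 RPKM in KO. The 3 of them that were tested (S100a8, S100a9 and Camp) were all higher in KO over both times. They were also all lower at CT12 over both genotypes, the same directions as Hmox1. At CT0 alone none of the 3 was called between genotypes (adjusted p = 0.104 to 0.126), and their summed levels overlapped. Among the markers of sinusoidal endothelium, 2 of 5 fell with time, and among those of stellate cells and fibroblasts 3 of 5 fell, none of either list differing between genotypes. Of the 5 hepatocyte markers only Alb was called between genotypes, lower in KO, while the median log2 difference of the list was 0.07. Of the 3 erythroid markers tested only Alas2 was called, lower in KO. Hbb-b1 and Hba-a1 went the other way, at 0.42 and 0.47, without being called. No listed marker was at 0 in all libraries. The part of these cell types in the differences of Hmox1 was not tested.

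**Figure D3:**
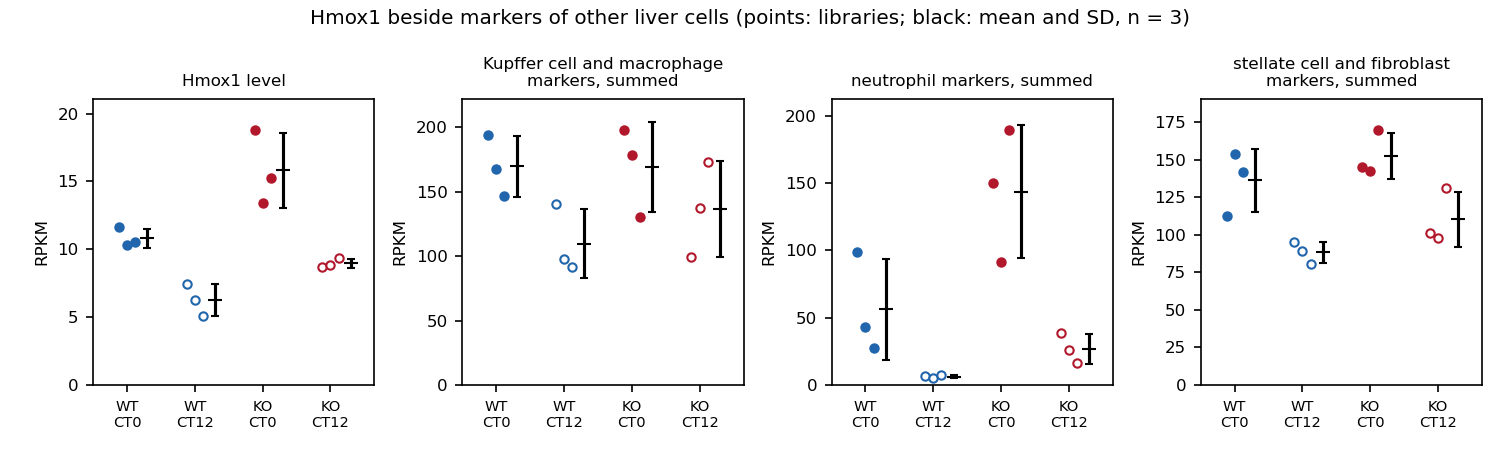
Level of Hmox1 and summed levels of 3 lists of marker genes (RPKM, linear axes from 0) in each library, with the mean and SD of 3 libraries in black. The neutrophil markers are ordered like Hmox1 in their group means and are lowest in WT at CT12 (5.14 to 7.22 RPKM). Between the genotypes the neutrophil markers overlap at CT0 and the macrophage markers at both times.

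G6pdx encodes glucose-6-phosphate dehydrogenase, which supplies NADPH from the pentose phosphate pathway (ENSMUSG00000031400, minus strand, kept transcript at chrX:71656198-71674215). It fell from CT0 to CT12 over both genotypes, by 0.61 ± 0.19 SE on the log2 scale (adjusted p = 0.0461). WT held 5.88, 3.95 and 3.93 RPKM at CT0 and 2.93, 2.67 and 1.85 RPKM at CT12. KO held 7.62, 3.26 and 2.58 RPKM at CT0 and 2.44, 2.42 and 2.58 RPKM at CT12, so that at CT0 a single library was far above the other two. In each genotype the CT12 libraries lay below the CT0 libraries, in KO with the nearest pair at 2.582 and 2.576 RPKM. Without replicate 1 of KO at CT0 the difference over both genotypes was -0.42 (adjusted p = 0.0356) and that in WT passed by itself (-0.68, adjusted p = 0.0194), while that in KO was -0.17 (adjusted p = 0.668). With all libraries the fall in WT alone did not pass (adjusted p = 0.126), and it passed in 2 of 22 alternatives. The call over both genotypes was lost without any one of the WT libraries or of the KO libraries at CT12, with adjusted p-values of 0.0599 to 0.103. Its level rested on 31 to 142 reads per library. Between genotypes over both times the value was -0.05 ± 0.19 SE (adjusted p = 0.904), and without replicate 1 of KO at CT0 it was -0.24 (adjusted p = 0.240).

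Cat encodes catalase, the peroxisomal enzyme that turns hydrogen peroxide into water and oxygen (ENSMUSG00000027187, minus strand, kept transcript at chr2:103294752-103325282). It passed the test in no comparison. WT held 1254, 1385 and 1501 RPKM at CT0 and 1309, 1249 and 1408 RPKM at CT12. KO held 1162, 1224 and 1130 RPKM at CT0 and 1043, 1294 and 1171 RPKM at CT12. At CT0 every KO library lay below every WT library, and at CT12 replicate 2 of KO reached into the WT range. KO minus WT over both times was -0.21 ± 0.07 SE (adjusted p = 0.0891, 95% interval -0.36 to -0.05), and CT12 minus CT0 was -0.03 (95% interval -0.19 to 0.12). The full-length row of 2613 bases gave -0.20 ± 0.07 SE for the genotypes (adjusted p = 0.0886).

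For the genes that were called, the genes called in the same comparison whose profile over the 12 libraries was most like theirs were looked up, by the root mean square of the difference in log2 level after centring. Nearest to Hmox1 was Cldn2, which encodes a claudin of tight junctions, at 0.14, where the profile of Hmox1 itself had a root mean square of 0.46. Cldn2 differed by 0.40 between genotypes at CT0 as well as at CT12, and by -0.61 between times in each genotype. Nearest to Gclc was Ccdc12, at 0.14 against 0.34 for Gclc itself, and nearest to Nfe2l2 was 8430406I07Rik, at 0.08 against 0.23. Nearest to G6pdx was Slco2b1, which encodes an organic anion transporter, at 0.21 against 0.44. This likeness is a description over 12 libraries, with no test. It was looked up among 1130 to 1790 genes, or 262 for the fall in KO.

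A wider list of 62 genes of the NRF2 pathway, grouped by role, was examined to set the 10 genes in context. It was drawn up with earlier results of these data known, so its share of calls is no independent comparison. Of the 62 genes 56 were tested, with a median log2 difference between genotypes of 0.01 over both times, beside 0.04 for all tested genes. Over both times 7 of the 56 rose and 8 fell in KO (26.8% called, where 11.5% of all tested genes were called). Conjugation held 7 of these calls, with 4 class mu glutathione S-transferases higher and 3 class alpha ones lower in KO. Of the partners and regulators of NRF2, 1 of 8 tested was called, and of the 3 glutathione peroxidases and of the 5 other NADPH-supplying genes none was. At CT0 4 rose and 1 fell (8.93% called, 1.86% of all tested genes), and at CT12 5 rose and 7 fell (21.4% and 10.5%). Between the times, 2 rose and 3 fell in WT (8.93% and 11.6%) and 1 fell in KO (1.79% and 2.43%). Over both genotypes 4 rose and 6 fell from CT0 to CT12 (17.9% and 16.6%). The shares called between the times were thus near or below those of all tested genes. The interaction called none of the 56 and 1.49% of all tested genes.

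The largest values belonged to the class mu transferases, enzymes that attach glutathione to electrophiles. Gstm3 was at 35.9 to 44.9 RPKM in WT at CT0 and 15.3 to 32.5 RPKM in WT at CT12, and at 184 to 540 RPKM and 233 to 426 RPKM in KO, a log2 difference of 3.34 ± 0.27 SE over both times (adjusted p = 1.09e-05). Gstm2 was at 48.7 to 52.5 RPKM and 25.8 to 41.9 RPKM in WT and at 201 to 398 RPKM and 206 to 249 RPKM in KO (2.66 ± 0.16 SE, adjusted p = 1.20e-06). Gstm1, the most abundant of them, was at 910 to 1276 RPKM in the WT libraries and at 2272 to 3126 RPKM in the KO libraries (1.26 ± 0.09 SE, adjusted p = 6.72e-06). Gstm4 was higher by 0.58 ± 0.10 SE (adjusted p = 0.00297). For each of these 4 genes no KO library overlapped a WT library at either time. The class alpha transferases went the other way, with Gsta2 at -1.31 ± 0.21 SE (adjusted p = 0.00185), Gsta4 at -0.94 ± 0.21 SE (adjusted p = 0.0131) and Gsta3, a gene of 769 to 1586 RPKM, at -0.57 ± 0.09 SE (adjusted p = 0.00177). Members of each class are close in sequence, so reads may be divided between them in ways that RPKM values do not show.

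**Figure D4:**
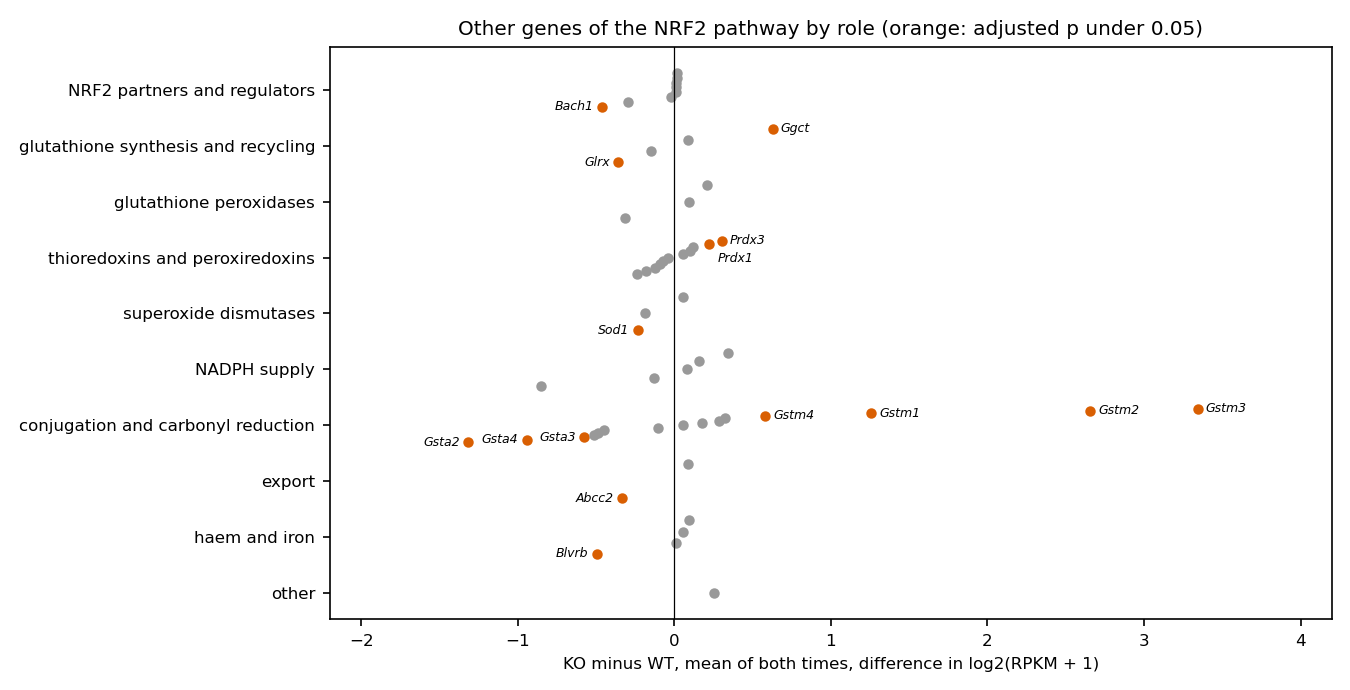
Difference in log2(RPKM + 1) between KO and WT, averaged over both times, for the 56 tested genes of the wider NRF2 pathway list, grouped by role (rows); orange points with names have an adjusted p under 0.05. The class mu transferases Gstm1, Gstm2, Gstm3 and Gstm4 reach from 0.58 to 3.34, and the class alpha transferases Gsta2, Gsta3 and Gsta4 lie at -0.57 to -1.31.

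Among the other genes of the list, Ggct, which encodes a cyclotransferase of glutathione turnover, rose by 0.63 ± 0.08 SE (adjusted p = 0.000258) from a level of 0.774 to 1.16 RPKM in WT to 1.76 to 2.17 RPKM in KO. Prdx3, the mitochondrial peroxiredoxin, rose by 0.30 ± 0.08 SE (adjusted p = 0.0292), a call that was lost without WT CT0 replicate 2 or 3 (adjusted p = 0.0622 and 0.0710), WT CT12 replicate 2 or 3 (0.0631 and 0.0697), KO CT0 replicate 3 (0.0514) or KO CT12 replicate 3 (0.0679). Blvrb, which encodes a biliverdin reductase, fell by 0.49 ± 0.07 SE (adjusted p = 0.000498). It was the only one called of the 4 haem and iron genes tested, and Blvra, the other biliverdin reductase, was not called. Abcc2, the canalicular exporter of glutathione conjugates, fell by 0.33 ± 0.07 SE (adjusted p = 0.00635).

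Bach1, the repressor of Hmox1 named above, was the one gene among the partners and regulators of NRF2 that was called between genotypes. WT held 5.71, 5.47 and 5.15 RPKM at CT0 and 12.1, 8.17 and 7.98 RPKM at CT12, and KO held 5.26, 4.96 and 4.996 RPKM at CT0 and 4.63, 5.66 and 3.99 RPKM at CT12. WT at CT12 stood above the other 3 groups without overlap. Bach1 rose from CT0 to CT12 in WT by 0.67 ± 0.15 SE (adjusted p = 0.0130), and at CT12 KO was lower than WT (log2 difference -0.84 ± 0.15 SE, adjusted p = 0.00307). Over both times KO was lower by -0.46 ± 0.10 SE on the log2 scale (adjusted p = 0.0123), and these 3 calls were kept under every alternative run. The WT libraries at CT12, highest for Bach1, were lowest for Hmox1 and for Gclc. In KO, Bach1 differed by -0.08 between the times (adjusted p = 0.795), where Hmox1 fell. The interaction for Bach1 was -0.76 and did not pass (adjusted p = 0.118), nor did it under any of 20 alternatives. At CT0, KO minus WT was -0.09 for Bach1 (adjusted p = 0.852) and 0.50 for Hmox1 (adjusted p = 0.0941). A link between Bach1 and Hmox1 or Gclc was not tested.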

How the data were processed

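RNA-seq of 12 mouse livers was analysed, 3 libraries per genotype and circadian time, grouped by their titles. The authors deposited 1 table per library with RPKM values for 46585 Ensembl transcripts, each with a symbol, with replicates not pooled. The submitters' processing notes name TopHat2, bedtools 2.19.1 and mm9. How reads shared by transcripts were divided, and whether strand was used, is not given in the sources used here. RPKM values are not counts. Multiplied by transcript length (GENCODE vM1 on NCBIM37, the build also called mm9, with a length for 95.5% of rows), 95.7% to 96.3% of low values were within 0.05 of whole reads, which gave the depth. For the kept rows of Gclm and Cat this did not give whole reads, so no read numbers are given for them.

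The row with the highest mean was kept per symbol, and symbols whose mean reached 1 RPKM in any group were tested. log2(RPKM + 1) was fitted by limma 3.58.1 in R 4.3.3 (4 group means, eBayes with a trend, two-sided, Benjamini-Hochberg, threshold 0.05). The fit was tested on simulated data. Tables were joined with pandas 2.3.3 and plotted with matplotlib 3.10.9 under Python 3.11.15. The members, lists and tests were chosen with earlier results of these data known. All 10 members and Arntl are named, and of the pathway list up to 6 genes in each direction with the smallest adjusted p-values between genotypes over both times. No 2 libraries of a group were near identical (correlations of 0.990 to 0.995). Alternatives were a pseudocount of 0.1, other filters, quantile normalization, other treatment of transcript rows, the replicate number as a block, no trend, only the 6 libraries compared, and leaving out each library. Precision of low genes is limited by their read numbers.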

Additional observations from a re-analysis of the deposited data

How the results depend on the processing

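Of 1496 values of the 10 genes under the alternatives, 1458 kept their call or its absence, 29 lost a call, 9 gained one and 0 calls turned direction, where a change of sign without a call on either side was not counted as a turn. The calls of Hmox1 between genotypes over both times, of Hmox1 and Gclc with time in WT and over both genotypes, and of Nfe2l2 with time over both genotypes held under every alternative run. For KO minus WT at CT12, where 1 of the 10 genes was called, the number was 0 without a filter, with quantile normalization, without the trend and with only the 6 libraries compared, and 0 to 1 when a library was left out. Hmox1 was lost in 14 of 22 alternatives there (adjusted p 0.0257 to 0.172). For CT12 minus CT0 in KO the number went from 1 to 0 with only the 6 libraries compared and was 0 to 2 when a library was left out. For KO minus WT over both times it was 1 to 2, and for the interaction 0 to 1, when a library was left out. G6pdx lost its call with time over both genotypes in 11 of 21 alternatives (adjusted p 0.0215 to 0.103), among them no filter and quantile normalization. For the wider pathway list the number called with time over both genotypes, 10, was 4 to 11, and that in KO, 1, was 0 to 4. Between genotypes at CT0 it was 3 to 6 in place of 5, and over both times 12 to 17 in place of 15. The cause of these changes was not tested.

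Replicate numbers do not pair the libraries, since deviations of libraries with the same number correlated at -0.07 to 0.14 and those with different numbers at -0.19 to 0.11. With the replicate block, 2 of the 10 genes were called for KO minus WT at CT12, Hmox1 and Gclc (adjusted p = 0.0313 for Gclc). Read numbers limit what can be seen in G6pdx, Nqo1 and the kept row of Hmox1.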

Other observations

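Some genes of the wider pathway list changed with time and fall outside the rule by which genes were named, so they were chosen after their values were seen. Sqstm1, which encodes the adaptor p62 that can hold KEAP1, fell from CT0 to CT12 in WT by 0.64 ± 0.14 SE on the log2 scale (adjusted p = 0.0130, limma), from a mean of 168 to 107 RPKM. In KO its means were 152 and 117 RPKM. Osgin1, an oxidative stress-induced growth inhibitor, fell in WT by 1.53 ± 0.34 SE (adjusted p = 0.0146), from a mean of 57.0 to 18.9 RPKM, and its means in KO were 54.1 and 32.6 RPKM. Gpx3, a secreted glutathione peroxidase, was at a mean of 2.2 and 1.14 RPKM in WT and 2.999 and 1.26 RPKM in KO, and fell over both genotypes by 0.68 ± 0.12 SE (adjusted p = 0.00285). The interaction passed the test for none of these 3 genes.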
